A study of Mus musculus with 38 samples.

Results

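Transcripts of 84 nuclear genes for subunits of the mitochondrial respiratory chain and ATP synthase were followed in mouse liver. They were all genes with a probe set of their own on the arrays and a symbol starting with Ndufa, Ndufb, Ndufc, Ndufs, Ndufv, Uqcr, Atp5 or Cox4 to Cox8, or equal to Sdha, Sdhb, Sdhc, Sdhd, Cycs or Cyc1. The complex I assembly factors, whose symbols start with Ndufaf, were left out. The 84 were among 18194 genes with a probe set of their own. Complex I had 36 of them, complex II 4, complex III 9, complex IV 17, ATP synthase (complex V) 17 and cytochrome c 1.

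In the inner mitochondrial membrane, complex I (NADH dehydrogenase) and complex II (succinate dehydrogenase) pass electrons to ubiquinone. Complex III hands them to the carrier protein cytochrome c, complex IV (cytochrome c oxidase) reduces oxygen, and the proton gradient built on the way drives ATP synthase. Liver cells hold many mitochondria and draw on this chain for the ATP used in glucose, urea and bile acid synthesis. Most subunits come from nuclear genes, and a core set is encoded in mitochondrial DNA.

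The mice were male CD-1 animals aged 6 to 8 weeks, and whole liver RNA was hybridised to Affymetrix mouse 430_2 arrays, 1 array per sample. In the conazole experiment mice ate control feed, propiconazole at 2500 ppm or triadimefon (spelled tridimefon in the labels) at 1800 ppm for 4 or 30 days, with 3 biological replicates in each of 6 groups. In the phenobarbital experiment mice ate control feed or phenobarbital at 850 ppm for 4 or 30 days, with 5 biological replicates in each of 4 groups. Mean intakes were 349.6 ± 46.7 mg/kg/day of propiconazole, 257.1 ± 33.5 of triadimefon and 97.2 ± 5.9 of phenobarbital, as the labels give them. Propiconazole and triadimefon are triazole fungicides that inhibit a fungal sterol demethylase, and phenobarbital is a barbiturate that activates the nuclear receptor CAR in liver. The series asks how tumorigenic conazoles differ in liver transcription from phenobarbital. The labels call the samples biological replicates without saying that each is 1 animal, so the p-values measure the spread between these samples.

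Levels are log2(intensity + 16) after quantile normalization, so the lowest possible level is 4. Changes are differences of group means on that scale, with the standard error (SE) of a linear model (limma) fitted to all 38 arrays. A gene was called when its Benjamini-Hochberg adjusted p, over the 17729 genes that varied, was under 0.05. Counts of genes with an unadjusted p under 0.05 are given without the share of all genes and are a description only. Background was set at a level of 6.13, below which 95% of the 39 olfactory receptor genes had their means, and 9314 genes had a mean above it. The conazole arrays had median deposited intensities of 12.5 to 34.5 and the phenobarbital arrays of 25.0 to 36.1. Propiconazole day 4 replicate 2 stood apart: its 3′ control probe set for Gapdh was 6.40 log2 units brighter than the 5′ one (elsewhere the gap ran from -0.35 to 0.22), and its median intensity of 12.5 was the lowest of the 38. Calls of members that it touches are given with and without it, and the related gene lists and the correlations only with it. RNA from whole liver mixes cell types, so fewer cells of a type and less RNA per cell cannot be told apart.

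Of the 84 members, 76 had a mean above background: 34 of complex I, all 4 of complex II, all 9 of complex III, 11 of complex IV, all 17 of complex V and cytochrome c (Cycs). The 8 below it were Cox4i2, Cox6b2, Cox7a1, Cox7b2, Cox7c, Cox8b, Ndufa4l2 and Ndufb4. A low value on 1 probe set does not show that a transcript is absent. Ndufb4, for example, is also covered by probe sets that share the symbols Ndufb4b and Ndufb4c, with means up to 11.59, which were left out because they name several genes. Ndufa11 and Ndufs6 are not among the 84 for the same reason: their probe sets also name Ndufa11b and Ndufs6b, and reached means of 10.62 and 11.07. Complex II is encoded wholly in the nucleus. None of the 13 mitochondrially encoded subunits listed for comparison had a probe set of its own here, so the mitochondrial genome's share of the chain was not analysed here. The widely expressed isoforms Cox4i1, Cox6a1, Cox7a2 and Cox8a were above background on every array.

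Complex IV has paired isoforms, one form of each pair being typical of heart, skeletal muscle and brown fat. These muscle-type forms, Cox6a2, Cox7a1 and Cox8b, were high on 2 control arrays. On conazole control day 4 replicate 2, Cox6a2 was at 9.51, Cox7a1 at 8.16 and Cox8b at 8.40. On phenobarbital control day 30 replicate 5, the levels were 9.10, 7.96 and 9.19. Over the other 36 arrays, Cox6a2 ranged from 6.08 to 7.96, Cox7a1 from 4.00 to 5.82 and Cox8b from 4.00 to 6.73, with a median of 4.00 for Cox8b. In each of the 2 control groups 1 array was high and the others were not.

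The 9 skeletal and heart muscle markers (Acta1, Myh4, Myh6, Myh7, Tnnt2, Tnnt3, Ckm, Mb, Actc1) summed to an intensity of 12433 on the first of these arrays and 9040 on the second. On the other 36 the sum had a median of 79.4 and reached 4640 on triadimefon day 4 replicate 3 and 4418 on propiconazole day 4 replicate 1. Acta1, the skeletal muscle actin, was at 12.34 and 11.99 on the 2 control arrays and had a median of 4.09 elsewhere. The brown fat genes Ucp1 and Cidea were at 9.26 and 8.03 on phenobarbital control day 30 replicate 5, while Ucp1 was at the lowest level, 4.00, on the 36 other arrays. On conazole control day 4 replicate 2 Ucp1 was at 4.00 and Cidea at 4.00. The part of muscle or brown fat RNA in these subunit levels was not tested. Of the general forms, Cox6a1 was at 12.88 and 13.02 on these 2 arrays, within its range of 12.70 to 13.12 on the others. Cox7a2 was at 12.59 and 12.74, the second being the highest of its 38 values.

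**Figure D1:**
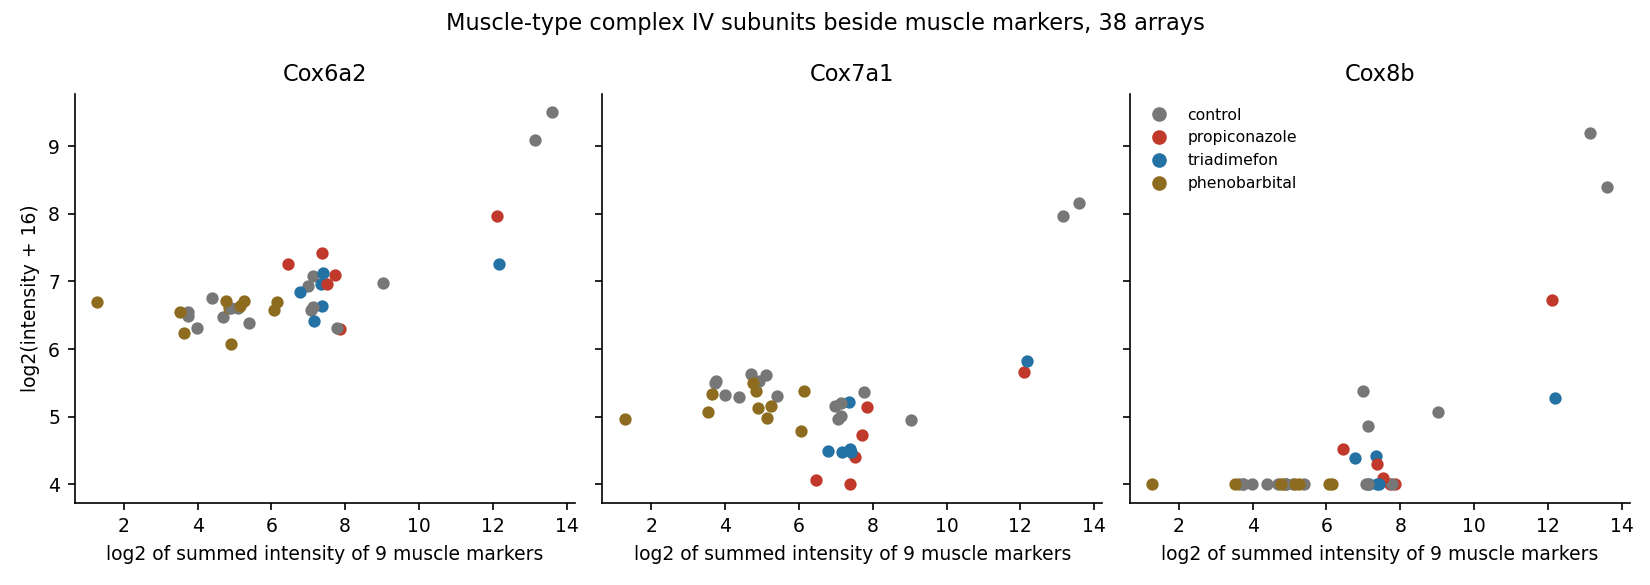
Each point is 1 of 38 arrays, coloured by treatment, with the log2 of the summed intensity of 9 muscle markers on the x axis and the log2(intensity + 16) level of Cox6a2, Cox7a1 or Cox8b on the y axis. The 2 control arrays at the upper right have sums of 12433 and 9040 and the highest levels of all 3 subunits.

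Isoforms of the other pairs were read in the same way. Cox4i1, the general form of the complex IV subunit that binds ATP and ADP, ranged from 12.14 to 12.54 over the 38 arrays, and Cox4i2, the form known from lung, stayed between 4.91 and 6.30, around background. Ndufa4, now counted with complex IV, ranged from 12.19 to 12.62, and its relative Ndufa4l2 from 4.00 to 6.77. Both were kept in complex I here, by their symbols, and enter its counts. The 3 genes Atp5g1, Atp5g2 and Atp5g3 encode the same mature c subunit of ATP synthase. Their changes at triadimefon day 30 were -0.20, -0.33 and -0.07, none of them called, and all 3 lay below the controls on every triadimefon array. Cox7a2l, a factor that helps join complexes III and IV, was called in 1 comparison, higher after 4 days of propiconazole.

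The family as a whole was lowered after 30 days of triadimefon. Of the 76 members above background 66 had a negative change and the median change was -0.15, while 54.4% of all 9314 genes above background had a negative change and their median was -0.03. In 42 of the 76 every triadimefon array lay below every control array, a share of 55.3%. Among all genes above background 17.1% did so. In none of the 76 did every triadimefon array lie above every control array, as 12.4% of genes above background did. The limma test called 10 of the 84 members lower and 0 higher, beside 3% of all genes tested called lower and 2.41% called higher, and 33 members had an unadjusted p under 0.05. The changes were small, the called falls lying between -0.21 and -0.64. The number called was 4 without conazole control day 30 replicate 1, 3 without its replicate 3, 4 without triadimefon day 30 replicate 3 and 20 without propiconazole day 4 replicate 2.

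**Figure D2:**
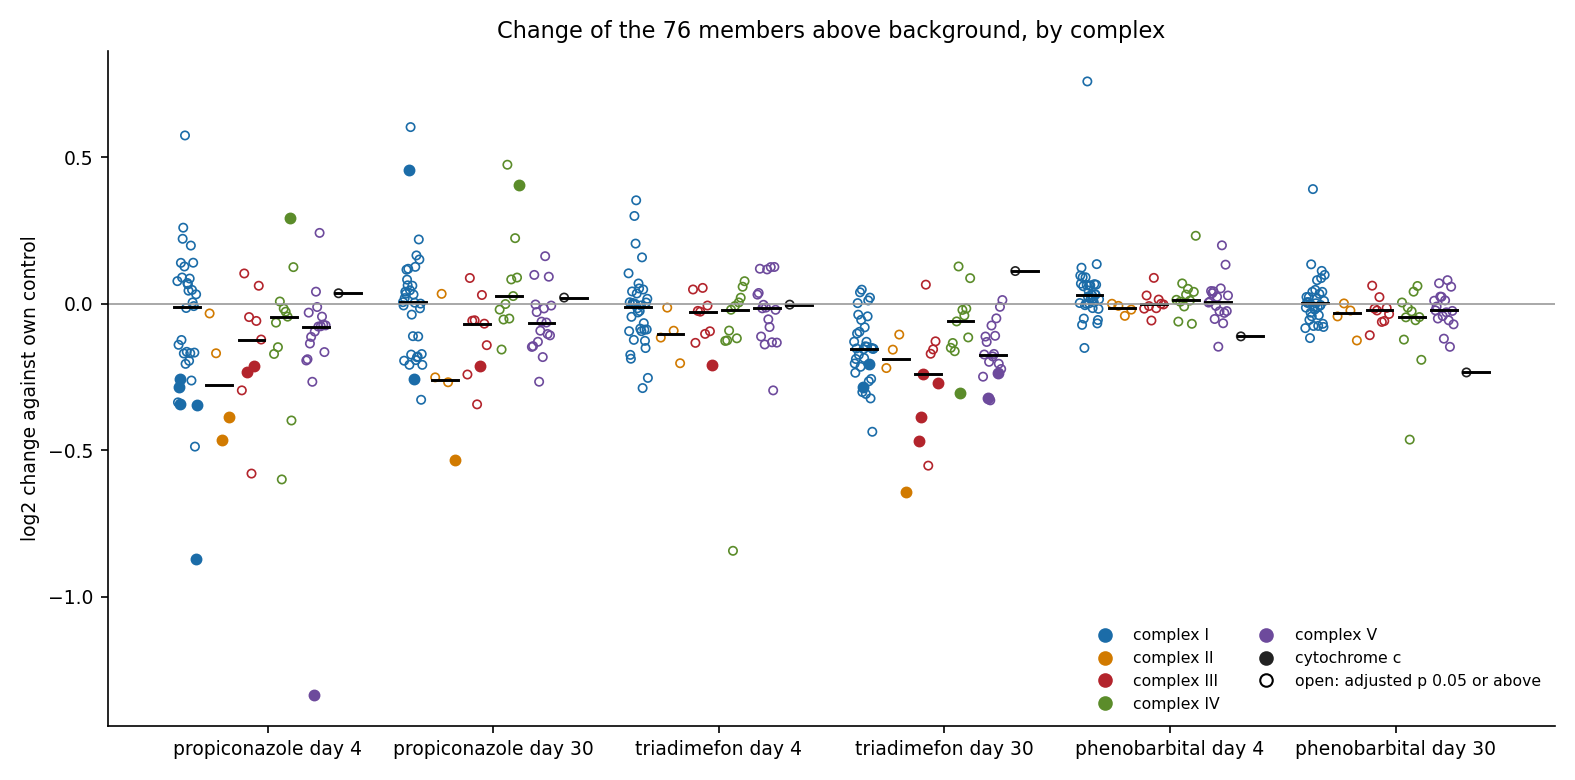
The y axis is the log2 change against the experiment's own control for each of the 76 members above background, grouped on the x axis by comparison and within it by complex (colours); filled points passed an adjusted p under 0.05 and bars are medians. At triadimefon day 30 the medians of complexes I, II, III and V lie between -0.15 and -0.24, while the phenobarbital points cluster around 0.

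The median difference of the 76 members from the control mean was negative on each of the 3 triadimefon day 30 arrays. Replicate 1 had 73 of the 76 members below the control mean, replicate 2 had 55 and replicate 3 had 68, and the median differences were -0.16, -0.09 and -0.21. The 3 control arrays had 22, 62 and 24 below, with medians of 0.03, -0.05 and 0.03. The lowest control array and the highest triadimefon array were thus 0.04 log2 units apart, and the array medians did not overlap. The counts did overlap: control replicate 2, with 62 members below, had more than triadimefon replicate 2, with 55.

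**Figure D3:**
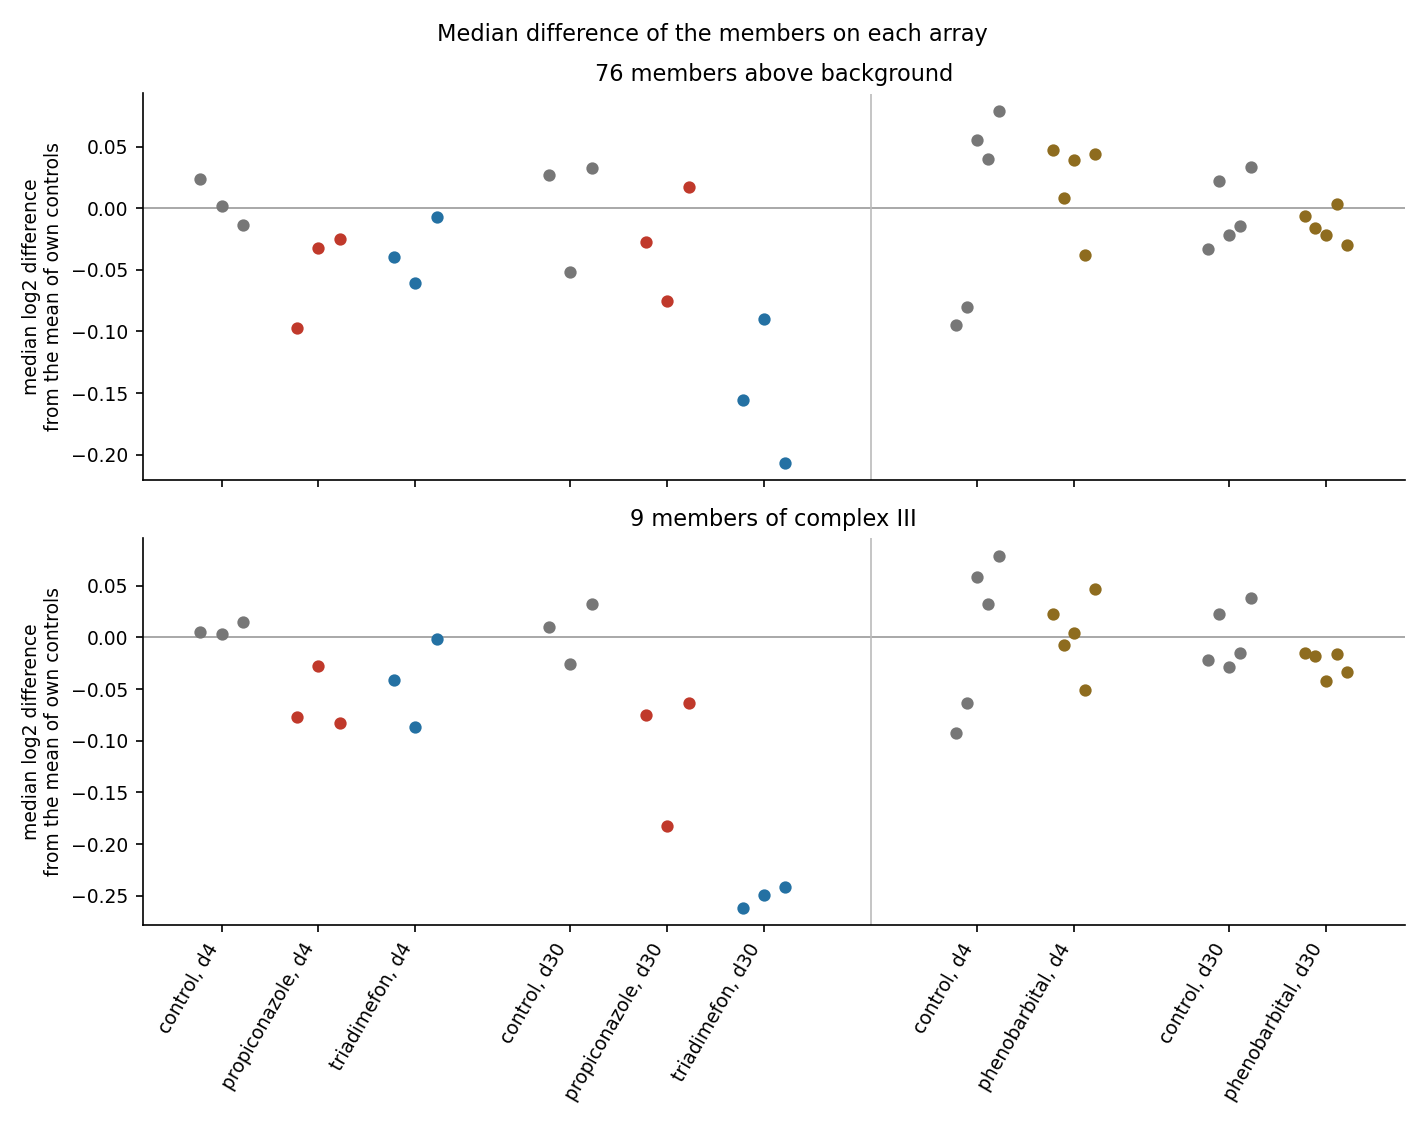
Each point is 1 array and the y axis is the median, over 76 members (top) or the 9 complex III members (bottom), of the log2 difference from the mean of the array's own controls; the x axis gives the 10 groups. All 3 triadimefon day 30 arrays lie below their controls in both panels, at -0.09 to -0.21 for all members.

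Complex III, the cytochrome bc1 complex, had the lowest median of the complexes at triadimefon day 30, -0.24. In 8 of its 9 members the groups did not overlap and the unadjusted p was under 0.05, and 4 were called. Cyc1, the cytochrome c1 subunit that hands electrons to cytochrome c, was at 12.06, 11.81 and 12.11 on the control arrays and at 11.62, 11.52 and 11.45 with triadimefon. All 3 treated arrays were lower, a change of -0.47 ± 0.12 (SE, adjusted p = 0.0172, limma). Uqcr10, a small subunit of the complex, was at 11.28, 11.27 and 11.32 in controls and 10.92, 10.998 and 10.79 with triadimefon. Its change of -0.39 ± 0.08 had an adjusted p of 0.0037 in limma's fit. Of its other 2 probe sets, one with a mean of 10.07 changed by -0.44 and one below background by 0.05. The call was lost with the mean of the 3 (-0.26, adjusted p = 0.253, limma) and with median centring (adjusted p = 0.0677).

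Uqcrq, a ubiquinone-binding accessory subunit, was at 12.17, 12.28 and 12.34 in controls and at 11.94, 12.02 and 12.03 with triadimefon. The treated arrays lay below the controls, with a change of -0.27 ± 0.06 (adjusted p = 0.0056, limma). The other 3 probe sets of Uqcrq had means of 4.84 to 6.03, below background. Uqcr11, the smallest subunit, changed by -0.24 ± 0.07 (adjusted p = 0.0255, limma). Uqcrc1, a core subunit, had 11.81, 11.72 and 11.86 in controls and 11.23, 11.22 and 11.27 with triadimefon. The groups did not overlap, and the change was -0.55 ± 0.23, but its adjusted p was 0.161 in the fit to all arrays, whose spread includes a level of 9.78 on propiconazole day 4 replicate 2. Without that array Uqcrc1 was called. Uqcrb, a small subunit of the complex, was the 1 complex III member with a positive change, +0.06.

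In complex II, which also works in the citric acid cycle, all 4 subunits were lower on every triadimefon day 30 array than on every control array. Sdhd, one of 2 membrane anchors of the complex, was at 11.43, 11.55 and 11.55 in controls. It was at 11.05, 10.96 and 10.59 with triadimefon, a fall of 1.56-fold on the log2(intensity + 16) scale (-0.64 ± 0.11, adjusted p = 4.1e-04, limma). Its second probe set, with a mean of 8.94, changed by -0.23. The flavoprotein Sdha changed by -0.22, the iron-sulfur subunit Sdhb by -0.16 and the other anchor Sdhc by -0.11, none of them called.

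Complex V had a median of -0.17 and 16 of 17 negative changes. Atp5e, the epsilon subunit of the catalytic head, was at 11.04, 11.01 and 11.21 in controls and 10.84, 10.70 and 10.76 with triadimefon (-0.32 ± 0.07, adjusted p = 0.0095, limma). Atp5l, subunit g of the membrane part, changed by -0.24 ± 0.07 (adjusted p = 0.0355, limma). Both fell without overlap of the groups. The catalytic subunits Atp5a1 and Atp5b changed by -0.25 and -0.17, and neither was called.

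Complex I had a median of -0.15 with 29 of 34 negative. Ndufs3, an iron-sulfur protein of the matrix arm, was at 11.66, 11.54 and 11.58 in controls and 11.34, 11.48 and 11.33 with triadimefon, so the groups did not overlap (-0.21 ± 0.06, adjusted p = 0.0296, limma). Ndufb11, an accessory subunit of the membrane arm, was called at -0.28 ± 0.08 (adjusted p = 0.0437, limma), though 1 triadimefon array, at 11.62, lay above the lowest control, at 11.55. Its other 2 probe sets changed by -0.10 and -0.08. Ndufv1, the subunit that binds NADH, changed by -0.44 and was not called (adjusted p = 0.334, limma), with a level of 8.77 on propiconazole day 4 replicate 2 in the fitted spread. Its other 2 probe sets changed by -0.40 and -0.55.

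Complex IV shifted less, with a median of -0.06 and 9 of 11 negative. Its array medians overlapped between the groups, at -0.11 to 0.003 with triadimefon and -0.03 to 0.06 in controls. Cox6b1, which sits where the complex's monomers meet, was at 12.66, 12.52 and 12.62 in controls and 12.35, 12.32 and 12.21 with triadimefon (-0.30 ± 0.08, adjusted p = 0.0221, limma). The groups did not overlap, and its second probe set changed by -0.16. Cytochrome c itself, Cycs, had a change of +0.11, with triadimefon at 12.02, 12.17 and 12.03 and controls at 12.03, 11.90 and 11.95. These groups overlapped.

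Markers of other cells were read in the same comparison. The 5 measured neutrophil markers, 2 of them above background, summed to 1598 to 2172 on the triadimefon day 30 arrays against 295 to 354 on the controls, with Camp at 0 on the triadimefon arrays. In this list S100a8 had group means of 10.28 with triadimefon and 4.71 in controls, and S100a9 of 7.63 and 5.10. Ngp, with S100a8 the other above background, went the other way (7.87 and 8.10), as did Camp, so the sum mainly follows S100a8. The 8 stellate cell and fibroblast markers summed to 3459 to 4095 against 4603 to 6835, and the 6 brown adipocyte markers, 1 of them above background and Ucp1 at 0, to 3673 to 5228 against 5479 to 7824. The 1 brown adipocyte marker above background was Elovl3, at group means of 12.00 with triadimefon and 12.62 in controls, so this sum mainly follows Elovl3. Prdm16, below background, was at 5.12 and 4.65. These 3 sums did not overlap between the groups. Those of the 8 Kupffer cell and macrophage markers (4509 to 13748 against 4058 to 4963), the 9 measured hepatocyte markers (80048 to 83295 against 82131 to 84094) and the 4 measured cholangiocyte markers (544 to 641 against 438 to 574) overlapped. Though their sums overlapped, all 8 Kupffer cell and macrophage markers had a higher group mean with triadimefon than in controls. Csf1r, for example, was at 11.49 against 10.59 and Vsig4 at 10.02 against 9.04. The Actb 3′ control probe set exceeded the 5′ one by 0.47 to 0.51 on the triadimefon arrays and by 0.37 to 0.43 on the controls. The part of these cells and of RNA quality in the members' fall was not tested.

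**Figure D4:**
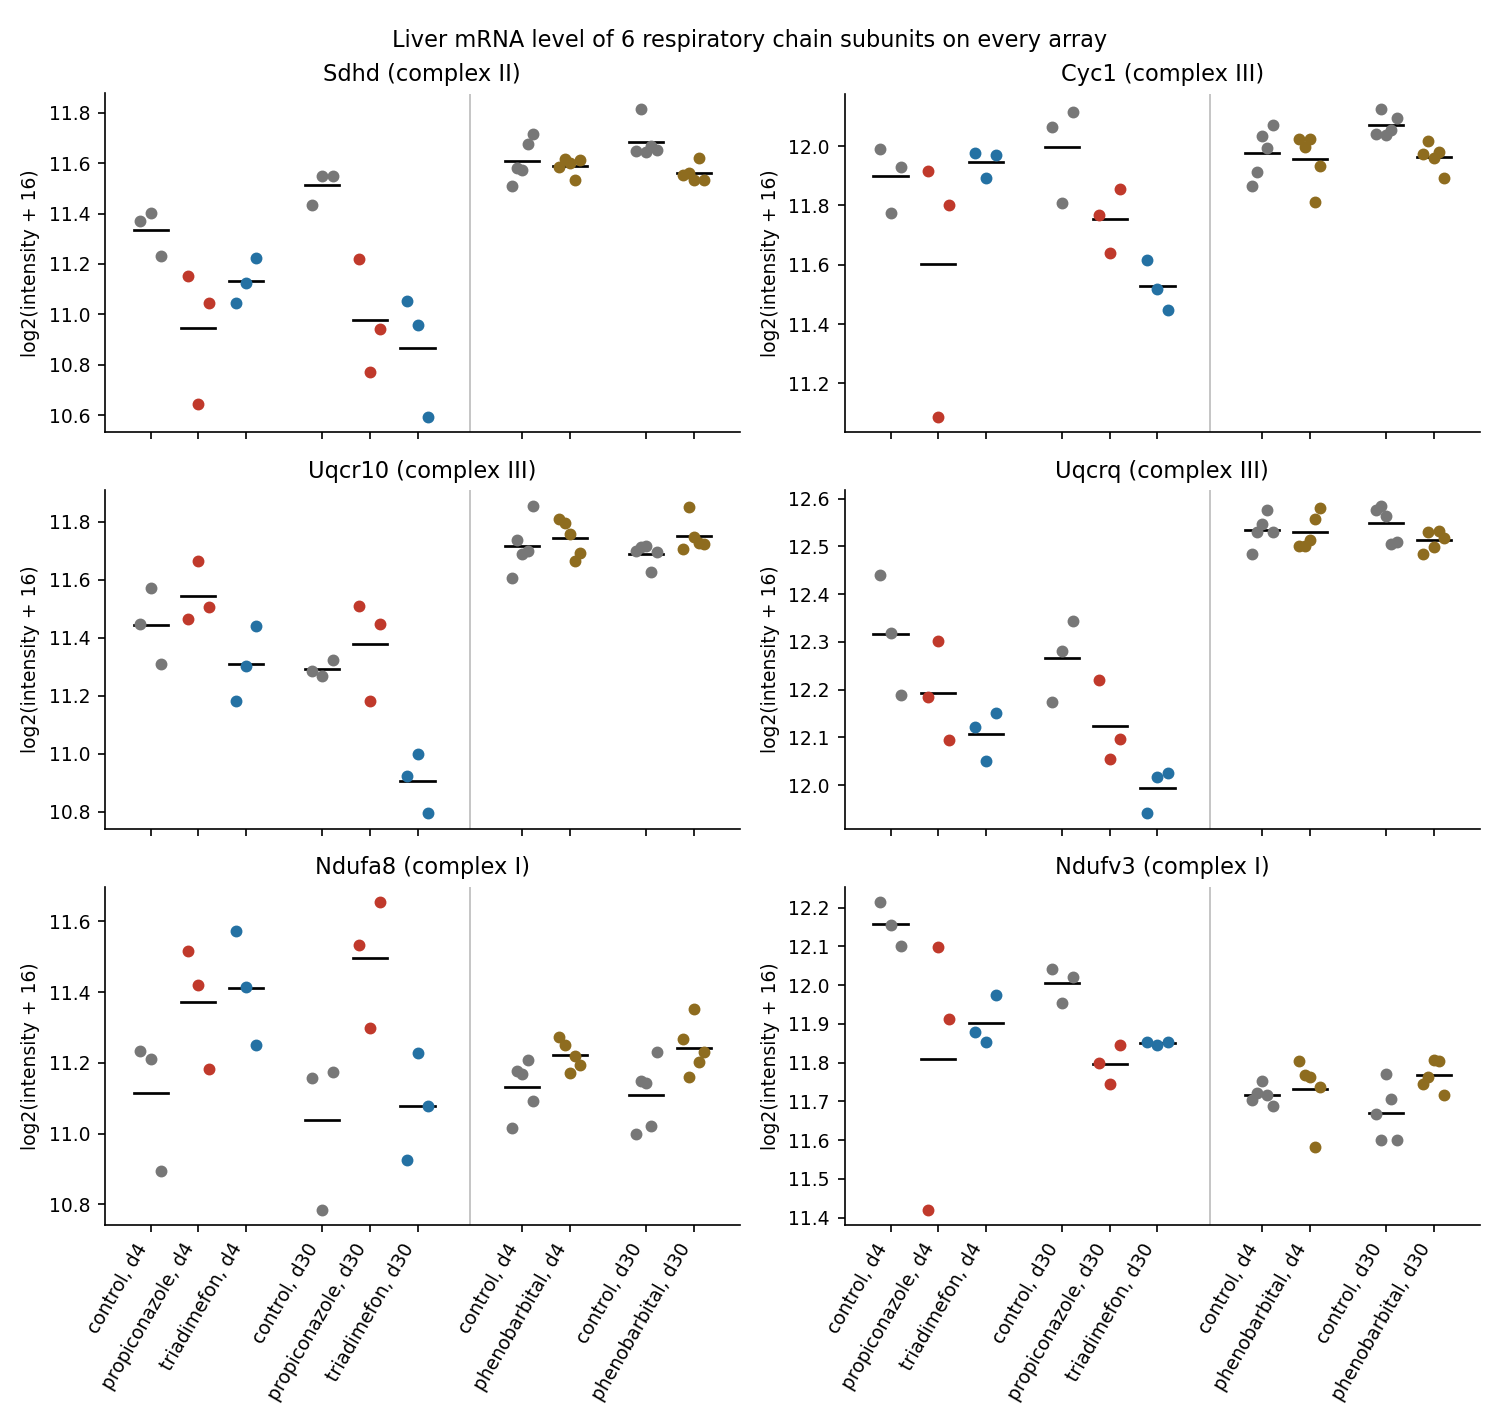
Each point is the log2(intensity + 16) level of 1 array (y axis, scaled per gene) in each of the 10 groups (x axis), for Sdhd, Cyc1, Uqcr10, Uqcrq, Ndufa8 and Ndufv3; bars are group means and the vertical line separates the experiments. Sdhd is lower with both conazoles at day 30, Cyc1 and Uqcr10 with triadimefon at day 30, and Ndufa8 is higher with propiconazole at day 30.

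After 30 days of propiconazole the family did not shift as a whole. The median change of the 76 was -0.02, with 45 of 76 negative, beside 55.2% of all genes above background and their median of -0.05. Complexes II and III were lower. Their array medians of the difference from the control mean lay at -0.31 to -0.17 for complex II, against -0.01 to 0.02 on the control arrays. For complex III they lay at -0.18 to -0.06 against -0.03 to 0.03. The array medians of complexes I, IV and V overlapped with those of the controls. The test called 2 members higher and 3 lower, 5 of 84, while 10.8% of all genes tested were called, 5.29% higher and 5.53% lower. In 15 of the 76 the propiconazole arrays lay below all controls and in 4 above, where 18.7% and 14.3% of genes above background did so. The number called was 3 without conazole control day 30 replicate 1, 2 without its replicate 3, 2 without propiconazole day 30 replicate 2, 8 without propiconazole day 4 replicate 1 and 18 without replicate 2 of that group.

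Sdhd was at 11.22, 10.77 and 10.94 with propiconazole at day 30, below all 3 controls (-0.53 ± 0.11, adjusted p = 0.0011, limma), and its second probe set changed by -0.09. Propiconazole and triadimefon were set against the same 3 control arrays, so the 2 falls of Sdhd are not independent. Uqcrc2, a core subunit of complex III, was at 11.34, 11.40 and 11.49 against 11.63, 11.59 and 11.65 (-0.21 ± 0.06, adjusted p = 0.0232, limma), with a change of -0.06 on its second probe set. Ndufb6, an accessory subunit of complex I, was called lower at -0.26 ± 0.08 (adjusted p = 0.0311, limma), though its groups overlapped and its second probe set changed by -0.05.

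Ndufa8, a complex I subunit of the intermembrane space side, was higher. It stood at 11.53, 11.30 and 11.65 with propiconazole against 11.16, 10.78 and 11.17 in controls, a rise of 1.37-fold (0.46 ± 0.11, adjusted p = 0.0050, limma). Every propiconazole array was above every control. Cox8c, a complex IV isoform known from testis, was at 9.09, 9.35 and 9.29 against 9.002, 8.92 and 8.60 (0.40 ± 0.11, adjusted p = 0.0191, limma). Its arrays did not overlap either, and its second probe set, below background, changed by 0.32. The hepatocyte markers summed to 75151 to 78342 on the propiconazole day 30 arrays, below the controls' 82131 to 84094. The Kupffer cell and macrophage markers summed to 4688 to 7841 on these propiconazole arrays against 4058 to 4963 in controls. The sums overlapped, but each of these markers had a higher group mean with propiconazole, as Csf1r at 10.92 against 10.59. The stellate cell and fibroblast markers summed to 3233 to 3588 against 4603 to 6835 in controls, and the neutrophil markers to 263 to 4773. Of the 2 neutrophil markers above background, S100a8 had group means of 9.88 with propiconazole and 4.71 in controls, and Ngp of 7.94 and 8.10. The cholangiocyte markers, with Krt7 and Krt19 at 0, were higher than in controls (709 to 817 against 438 to 574), and the endothelial cell markers (1772 to 1899 against 1932 to 2047) and brown adipocyte markers (1704 to 3178 against 5479 to 7824) lower. In the endothelial list Kdr (group means of 9.31 against 9.77) and Stab2 (8.89 against 9.02) were lower. Lyve1 (6.90 against 5.90), Stab1 (8.07 against 7.89) and Cdh5 (7.35 against 7.26) went the other way, so this sum mainly follows Kdr. Oit3 was at 7.84 in both groups and Pecam1 at 4.00. The brown adipocyte sum mainly follows Elovl3, at group means of 11.08 with propiconazole and 12.62 in controls. Ucp1 and Cidea were at 4.00, and Prdm16 was at 5.10 and 4.65. The part of these cells in these results was not tested.

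After 4 days of triadimefon 1 member was called, among 3.75% of all genes. This was Uqcrq, at 12.12, 12.05 and 12.15 against 12.44, 12.32 and 12.19 in controls (-0.21 ± 0.06, adjusted p = 0.0429, limma). The cholangiocyte markers, 2 of 4 above background, summed to 490 to 664 on the triadimefon day 4 arrays against 342 to 410 in controls, and their part was not tested. The median of the 76 was -0.02, with 50 of 76 negative, against 50.9% of all genes above background. Without normalization between arrays the median over all 84 was +0.17 in place of -0.03, and 10 members were called, all higher, so no direction is given for the family at day 4. The call of Uqcrq was lost without any 1 of conazole control day 4 replicates 1 and 2, triadimefon day 4 replicates 1 and 2 and 6 single phenobarbital arrays, and 3 members were called without propiconazole day 4 replicate 1 or 2. The difference between the 2 times was tested directly. Triadimefon's change at day 30 minus its change at day 4 had a median of -0.13 over the 76, with 64 of 76 negative against 53.7% of all genes above background. RNA quality moved with this difference: the Actb 3′ control probe set exceeded the 5′ one by 0.88 to 1.37 on the conazole day 4 controls, 0.73 to 0.89 with triadimefon and 0.63 to 1.84 with propiconazole at day 4, and by 0.29 to 0.51 on all day 30 and phenobarbital arrays. Its part in the day 4 results and in the difference between the times was not tested. In limma's fit 0 members were called for this difference, 14 had an unadjusted p under 0.05, and 1.31% of all genes were called.

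After 4 days of propiconazole 10 members were called lower and 1 higher, where 13.9% of all genes were called, 6.53% lower and 7.36% higher. The median change of the 76 was -0.08, with 52 of 76 negative beside 49.7% of all genes above background. Much of this rested on replicate 2, the array with the high 3′ signal. The neutrophil markers summed to 316 to 6677 on the propiconazole arrays against 196 to 388 in controls, and the hepatocyte markers to 76662 to 84647 against 81024 to 82974. Of the 2 neutrophil markers above background, S100a8 had group means of 10.13 with propiconazole and 5.39 in controls, and Ngp of 7.66 and 7.59. The cholangiocyte markers summed to 495 to 560 against 342 to 410, without overlap. This sum mainly follows Epcam (group means of 8.81 against 8.43) and Sox9 (6.52 against 5.47). Krt19, below background, went the other way (4.36 against 4.83), and Krt7 was near the lowest level (4.18 against 4.02). The part of these cells was not tested. Atp5g2, a c subunit of the ATP synthase rotor, was at 11.02, 7.60 and 11.06 against 11.26, 11.31 and 11.12 in controls, so its change of -1.34 ± 0.42 (adjusted p = 0.0309, limma) came from 1 array. Without it the change was -0.19 and was not called. Its other 2 probe sets changed by -0.26 and, below background, -0.52. Ndufv1 was at 10.66, 8.77 and 10.75 against 10.95, 10.85 and 10.99, all 3 treated arrays being below the controls (-0.87 ± 0.24, adjusted p = 0.0158, limma). Its change without replicate 2 was -0.22, and it was still called. Its other 2 probe sets changed by -0.35 and -0.59 with all arrays.

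Without replicate 2, 5 members were called at propiconazole day 4, all lower and all of complex I: Ndufv3 at -0.49, Ndufa5 at -0.43, Ndufa2 at -0.35, Ndufa13 at -0.24 and Ndufv1 at -0.22. Ndufv3, a small subunit beside the NADH-binding site, was at 11.42, 12.10 and 11.91 with propiconazole and 12.21, 12.16 and 12.10 in controls (-0.35 ± 0.09 with all arrays, adjusted p = 0.0107, limma). Replicate 1 was the lowest of them. Ndufa13, also known as GRIM-19, was at 11.67, 11.55 and 11.67 against 12.02, 11.88 and 11.85 (-0.28 ± 0.07, adjusted p = 0.0076, limma), with no overlap. The calls of Sdhc, Sdhd, Uqcr11, Uqcrc2, Ndufa3, Atp5g2 and the 1 rise, Cox7a2l (0.29 ± 0.10, adjusted p = 0.0464, limma, with 0.18 and 0.35 on its other 2 probe sets), were lost without replicate 2. The number called was 4 without conazole control day 4 replicate 1 or 2, 18 without propiconazole day 4 replicate 1 and 29 without its replicate 3. Ndufa5, at 9.89, 10.65 and 9.59 against 10.22, 10.15 and 10.14, was high on replicate 2 and was called in its absence.

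Leaving out replicate 2 also changed the calls of the other conazole comparisons. Members called at triadimefon day 30 then numbered 20, all lower, with Uqcrc1 (-0.55), Ndufv1 (-0.44), Atp5g2 (-0.33), Atp5a1 (-0.25), Ndufs7 (-0.26), Ndufa9 (-0.22), Atp5o (-0.22), Atp5g1 (-0.20), Atp5b (-0.17) and Uqcrfs1 (-0.16) added to the 10. At propiconazole day 30 they numbered 18, of which Cox8c, Ndufa8, Ndufs4 (0.22) and Ndufa4 (0.12) were higher and 14 lower. Uqcrc1, with 11.50, 11.33 and 11.52 on the propiconazole day 30 arrays, was then called at -0.34 and Ndufv1 at -0.33.

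With the conazole experiment normalized and fitted on its own, 0 members were called in any conazole comparison. When propiconazole day 4 replicate 2 was left out of that fit as well, a setting chosen after seeing the data, 4 members were called lower at triadimefon day 30: Uqcrc1 (-0.54 ± 0.08, adjusted p = 0.0065, limma), Ndufv1 (-0.44), Sdhd (-0.61) and Cyc1 (-0.49). At propiconazole day 30 they were Uqcrc1 (-0.35), Ndufv1 (-0.33), Sdhd (-0.51) and Sdhc (-0.27), and at propiconazole day 4 Ndufv3 (-0.52) and Ndufa5 (-0.42). The median at triadimefon day 30 stayed between -0.15 and -0.21 for the 76 members under all 10 alternative settings tabulated for it, and between -0.12 and -0.16 relative to the median of all genes above background. Some of these settings cannot move a difference of these group means, so their agreement was fixed in advance. They are the replicate block, the arrays compared, genes above background alone and the fit without propiconazole day 4 replicate 2.

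With the mean of all probe sets of a gene in place of the brightest, some calls were lost. They were those of Uqcr10, Cox6b1 and Ndufb11 at triadimefon day 30, Uqcrc2, Ndufb6 and Cox8c at propiconazole day 30, Uqcrq at triadimefon day 4, and Ndufa3 and Cox7a2l at propiconazole day 4. Those of Uqcr10 between the conazoles (0.26, adjusted p = 0.276, limma) and of Uqcr10 and Cox8c against phenobarbital at day 30 were lost as well.

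Phenobarbital left the members near their controls. At day 4 limma called 0 of the 84, 4 had an unadjusted p under 0.05, and 0.677% of all genes were called. The median change of the 76 was 0.01, with 46 of 76 positive beside 49.8% of all genes above background. At day 30 1 member was called, among 0.0846% of all genes called lower. This was Cox6b2, a testis form of complex IV, at levels of 4.00 to 5.58 that are all below background, so no fold is given. Of the 76 members above background limma called 0, and 3 had an unadjusted p under 0.05. Sdhd stood at 11.53 to 11.62 on the 5 phenobarbital arrays of day 30 and at 11.64 to 11.82 on their controls, a change of -0.13 (adjusted p = 0.955, limma).

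Changes with the conazoles were compared with those of phenobarbital as differences of changes, since each experiment has its own controls. At day 30 triadimefon's change minus phenobarbital's had a median of -0.12 over the 76 and was negative in 69, beside 53.4% of all genes above background. Uqcr10 was the 1 member called, at -0.45 ± 0.10 (adjusted p = 0.0410, limma), and 0.451% of all genes were called. This call was lost without any 1 of 16 arrays, and 8 members were called without propiconazole day 4 replicate 2. For propiconazole the 1 member called at day 30 was Cox8c, at 0.60 ± 0.14 (adjusted p = 0.0246, limma), among 1.92% of all genes, a call lost without conazole control day 30 replicate 3 or propiconazole day 30 replicate 2 or 3, while 4 members were called without propiconazole day 4 replicate 2. At day 4 it was Ndufa13, at -0.41 ± 0.09 (adjusted p = 0.0196, limma), among 1.83% of all genes. The call was lost without conazole control day 4 replicate 1, and 11 and 12 members were called without propiconazole day 4 replicate 1 or 3. For triadimefon at day 4 limma called 0 members, and 7 had an unadjusted p under 0.05, where 0.0451% of all genes were called.

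The conazoles were also set against each other, at doses that differ. At day 30 the 76 members were higher with propiconazole than with triadimefon by a median of 0.12, and 62 of 76 differences were positive against 48.3% of all genes above background. Of the 84 members 5 were called, all higher with propiconazole, where 2.22% of all genes were called in that direction. Uqcr10 was at 11.51, 11.18 and 11.45 with propiconazole and at 10.92, 10.998 and 10.79 with triadimefon (0.47 ± 0.08, adjusted p = 0.0008, limma). Ndufs5, a complex I subunit, was at 10.59, 10.27 and 10.54 against 9.96, 10.13 and 9.88 (0.47 ± 0.11, adjusted p = 0.0144, limma), and Ndufa8 differed by 0.42, Atp5e by 0.29 and the Rieske iron-sulfur protein Uqcrfs1 by 0.19. None of these 5 overlapped between the compounds. The number called was 1 without propiconazole day 30 replicate 1 or 3 or triadimefon day 30 replicate 3, 3 without triadimefon day 30 replicate 1 and 8 without propiconazole day 4 replicate 2. Sdhd did not separate them: its difference of 0.11 (95% interval -0.10 to 0.33) was not called. At day 4 limma called 0 members between the compounds, 22 had an unadjusted p under 0.05, and 1.84% of all genes were called. With values as deposited 67 were called lower with propiconazole, and without its replicate 1 or 3 17 and 18 were called.

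Related gene lists were read beside the members. At triadimefon day 30 the mitochondrial ribosomal proteins, which translate the mitochondrially encoded subunits, had a median of -0.18. Of 76 measured, 62 were negative, 10 were called lower and 0 higher, where 3% of all genes were called lower. Mrps27 (-1.09 ± 0.26, adjusted p = 0.0109, limma), Mrps26 (-0.79) and Mrpl12 (-0.57) were the largest of these falls. At triadimefon day 4 the same list had a median of +0.10 and 2 members called higher, Mrpl17 (0.51) and Mrpl54 (0.45), where 3.75% of all genes were called in either direction. With propiconazole at day 30 it had a median of -0.02, with 4 called higher and 6 lower, Mrps27 (-1.47) among the latter. As 5.29% of all genes were called higher and 5.53% lower there, these counts are near the background, and calls in the other lists at propiconazole day 30 are to be read against the same shares. The cytosolic ribosomal proteins had medians of 0.01 at triadimefon day 30 and 0.10 at day 4, with 0 of 32 called at day 30 by limma and 3 at an unadjusted p under 0.05.

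The assembly factors that build the complexes had a median of -0.15 at triadimefon day 30, with 6 of 45 measured called lower and 0 higher. The largest falls were Ecsit (-1.31 ± 0.22, adjusted p = 6.7e-04, limma), Ndufaf6 (-1.20) and Foxred1 (-0.62), all of them needed to assemble complex I. Ecsit was also called lower with propiconazole at day 30 (-0.82), where Ndufaf3, Cox11 and Lrpprc fell and Cox19 (0.78) and Timmdc1 (0.55) rose. Among 29 listed regulators, the mitochondrial deacetylase Sirt3 (-0.98 ± 0.15, adjusted p = 1.5e-04, limma) and the mitochondrial DNA polymerase Polg (-0.41) were called lower at triadimefon day 30. With propiconazole at day 30, Sirt3 (-0.73), Polg (-0.74), Gabpb2 (-0.82) and the fatty acid receptor Ppara (-1.13) were called lower, and 0 regulators higher, with 10 at an unadjusted p under 0.05 in limma's fit. At triadimefon day 4 the coactivator Ppargc1b (-1.69), Ppara (-1.35) and Sirt3 (-0.51) were called lower.

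Of 13 measured citric acid cycle genes 0 were called at triadimefon day 30 by limma, with 6 at an unadjusted p under 0.05 and a median of -0.15. With propiconazole at day 30 Idh2 (0.67) and Cs (0.39) rose and Dlst (-0.51) fell. Of the 8 genes for electron entry outside complex I, the electron transfer flavoprotein subunits Etfa (-0.33) and Etfb (-0.25) were called lower at triadimefon day 30. Etfa (-0.35), Prodh (-1.26) and Dhodh (-0.55) fell with propiconazole at day 30, while Chdh (0.40) rose. Of 12 carriers and porins limma called 0 at triadimefon day 30, with 2 at an unadjusted p under 0.05, and Vdac2 (-0.22) was called lower at propiconazole day 30. Of 11 inner membrane organisers Higd1a (-0.38) and Chchd3 (-0.36) were called lower at triadimefon day 30, and Apool (0.70) and Chchd6 (0.66) higher and Higd1a (-0.29) lower at propiconazole day 30. Of 6 mitochondrial antioxidant enzymes limma called 0 at triadimefon day 30, and 0 had an unadjusted p under 0.05. In the phenobarbital comparisons 1 gene of all these lists was called, Mrpl54, higher at day 30 (0.48).

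**Figure D5:**
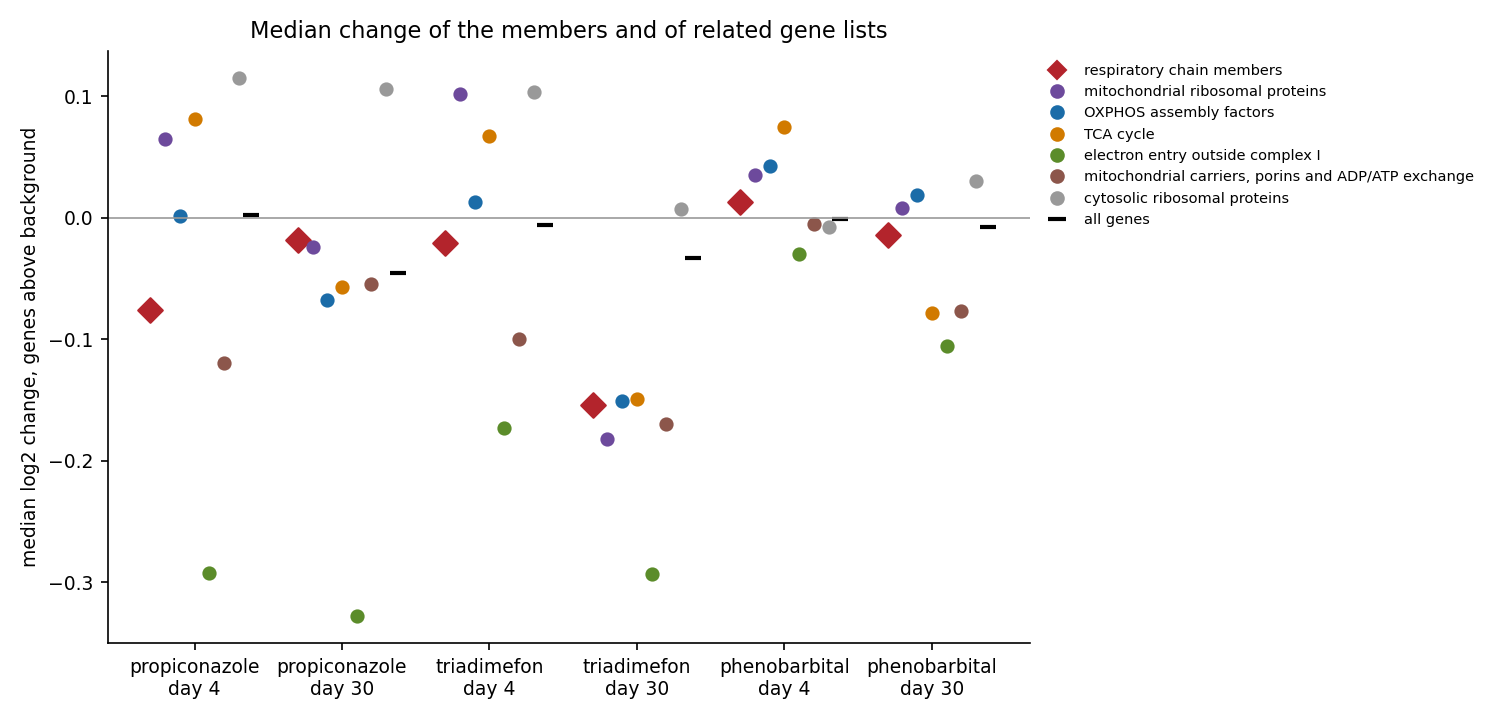
The y axis is the median log2 change, over genes above background, of the respiratory chain members (diamonds), 6 related gene lists (points) and all genes (bars) in the 6 comparisons on the x axis. At triadimefon day 30 the members, the mitochondrial ribosomal proteins, the assembly factors and the citric acid cycle genes lie between -0.15 and -0.18, while the cytosolic ribosomal proteins lie at 0.01.

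The complexes varied together from array to array within groups. Over the 38 arrays, after each group's mean was taken off, the mean level of a complex correlated with that of all other members at a Pearson r of 0.86 for complex III, 0.80 for complex V, 0.73 for complex I, 0.70 for complex II, 0.60 for complex IV and 0.34 for cytochrome c. These points share the arrays' RNA quality and normalization, and the values are a description. They include propiconazole day 4 replicate 2 and were not computed without it, so its part in them was not tested. In that group the complex V means of the 3 arrays were 11.56, 11.84 and 11.86, and those of complex II 11.14, 11.53 and 11.66. The 5 other genes with the most similar pattern were Fam20b (0.74), Acat1 (0.67), Gstm1 (0.66), Rhoj (0.65) and Lamtor2 (0.64).

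Promoters of the members were searched for letters bound by known regulators of respiratory genes. RefSeq promoters (build GRCm38.p6) from 250 bases before to 50 after the start were at hand for 68 of the 84 members and were searched on both strands. The NRF1 palindrome, GCGCATGC followed by GC, was in 5.88% of the 68, in 2.37% of 7633 genes above background with a promoter and in 1.07% of all 27025 genes of the table. The 8 letters GCGCATGC alone, which the palindrome contains, were in 14.7%, 6.17% and 3.05%. CCGGAAG, the GABP core, was in 25.0%, 20.6% and 9.93%. AAGATGGCG (YY1) was in 8.82%, 3.88% and 1.64%, and TCAAGGTCA (ERRalpha) in 2.94%, 0.354% and 0.466%. At least one of these was in 28 of the 68. The member shares rest on few genes: 4 of the 68 for the NRF1 palindrome, 10 for its 8 letters and 17 for GABP. For YY1 they rest on 6 and for ERRalpha on 2. A match is a description of the letters and not evidence of binding.

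The 250 bases before the start are shown 5′ to 3′ for 5 members called at day 30, chosen after their values were seen, with the motif in capitals: Sdhd, which fell with both conazoles (chr9:50603850-50604099, minus strand), Uqcr11 (chr10:80406822-80407071, minus strand), Atp5e (chr2:174464102-174464351, minus strand) and Cox6b1 (chr7:30626115-30626364, minus strand), which fell with triadimefon, and Ndufa8 (chr2:36049339-36049588, minus strand), which rose with propiconazole. Sdhd, Atp5e and Cox6b1 hold the GABP core on the opposite strand, Uqcr11 holds it on the gene's own strand, and Ndufa8 holds the short NRF1 form on the opposite strand right before the start. Sdhd also holds the ERRalpha letters past the start, outside the stretch shown. The short NRF1 form spans the start of Uqcr11. Of the other members called with a conazole at day 30, Atp5l, Ndufb6 and Ndufs3 hold the GABP core in their upstream stretches, which are not shown, Uqcr10 and Ndufb11 hold none of these letters, and Cyc1, Uqcrq, Uqcrc2 and Cox8c were not searched.
Sdhd: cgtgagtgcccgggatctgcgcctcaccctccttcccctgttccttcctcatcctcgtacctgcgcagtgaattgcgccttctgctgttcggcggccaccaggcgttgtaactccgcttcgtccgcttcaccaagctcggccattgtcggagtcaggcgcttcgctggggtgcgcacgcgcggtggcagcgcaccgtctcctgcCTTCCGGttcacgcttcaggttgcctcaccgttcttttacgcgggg
Uqcr11: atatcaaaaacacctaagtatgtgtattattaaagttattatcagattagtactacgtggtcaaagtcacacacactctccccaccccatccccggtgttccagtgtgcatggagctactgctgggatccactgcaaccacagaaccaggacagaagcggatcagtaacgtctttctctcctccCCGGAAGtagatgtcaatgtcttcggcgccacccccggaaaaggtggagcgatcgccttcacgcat
Atp5e: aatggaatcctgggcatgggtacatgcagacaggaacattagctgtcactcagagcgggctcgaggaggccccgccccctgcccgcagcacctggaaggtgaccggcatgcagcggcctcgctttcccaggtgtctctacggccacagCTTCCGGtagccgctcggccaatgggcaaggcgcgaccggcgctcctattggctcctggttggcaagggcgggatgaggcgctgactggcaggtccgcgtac
Cox6b1: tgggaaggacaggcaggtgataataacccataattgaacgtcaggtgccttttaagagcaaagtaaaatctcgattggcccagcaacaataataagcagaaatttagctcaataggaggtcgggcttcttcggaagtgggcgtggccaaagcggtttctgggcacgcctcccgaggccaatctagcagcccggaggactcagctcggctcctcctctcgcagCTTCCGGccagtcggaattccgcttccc
Ndufa8: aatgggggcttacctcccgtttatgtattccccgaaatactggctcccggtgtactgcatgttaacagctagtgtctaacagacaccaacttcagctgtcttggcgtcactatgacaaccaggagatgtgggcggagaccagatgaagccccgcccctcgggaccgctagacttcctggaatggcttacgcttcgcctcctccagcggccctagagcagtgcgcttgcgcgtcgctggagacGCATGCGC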

How the data were processed

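Liver RNA of 38 samples was hybridised to Affymetrix mouse 430_2 arrays, 1 sample per array. The deposited values are linear intensities for 45101 probe sets, of which 21.2% are below 0, and the software and scaling behind the deposited intensities are not given in the sources used here. Precision is limited by the number of arrays. Values were quantile normalized, values below 0 set to 0, and log2(value + 16) taken. GEO's platform annotation gave 1 symbol to 34958 probe sets, several to 932 and none to 9211, and symbols from it were checked against RefSeq names (84 of 84 members current). Each gene took its probe set with the highest mean. Members with several probe sets numbered 50, and the other probe sets are given for called members described singly.

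Limma 3.58.1 in R 4.3.3 (lmFit, contrasts.fit, eBayes with a trend) was fitted to all 10 groups, with 28 residual degrees of freedom, over 17729 genes and 15 comparisons. Benjamini-Hochberg adjustment ran within each comparison, and tests were two-sided. The fit was tested on simulated data. Alternatives were no normalization, median centring, a pseudocount of 64, genes above background, means of all probe sets, a replicate block, separate experiments, fits to the arrays compared and leaving out each array. Named members were, by rule, those of highest and lowest mean in each complex, up to 6 called rises and falls per comparison with control and the best called of each complex, up to 4 each way per difference of changes, the isoform groups, Sdha to Sdhd, Cycs and Cyc1, and up to 3 rises and falls per related list. Others named (Uqcrc1, Ndufv1 with triadimefon, Atp5a1, Atp5b, Ndufa5 and those called without an array) were chosen after their values were seen. The members, lists and tests were chosen with earlier results of these data known. Replicate numbers did not pair the samples.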

Additional observations from a re-analysis of the deposited data

Results flagged for a closer look

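In groups of 5, 1 array can lie far from the other 4. This was tested for 42 named members in 4 groups, and 11 values stood apart by Dixon's test at the 95% level, and chance flags about 1 in 20 groups. All 11 are in the phenobarbital experiment, since groups of 3 were not tested.

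On phenobarbital control day 30 replicate 5, Cox6a2 stood at 9.10 (the others at 6.54 to 6.76), Cox7a1 at 7.96 (5.30 to 5.62), Cox8b at 9.19 (all others at 4.00) and cytochrome c, Cycs, at 11.79 (11.45 to 11.52). This is the array whose 9 muscle markers summed to 9040. The part of muscle RNA was not tested.

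Among day 4 phenobarbital controls, Ndufb1 was low at 5.004 on replicate 1 (the others at 7.15 to 7.91), Cox4i2 was high at 6.30 on replicate 3 (5.17 to 5.43) and Atp5g2 was high at 11.48 on replicate 5 (the others at 11.40 or below). At day 30 Sdhd was high at 11.82 on control replicate 2 (11.64 to 11.67), and Uqcr10 was low at 11.63 on control replicate 4 (11.69 to 11.72). With phenobarbital at day 30, replicate 2 was high for Uqcr10 at 11.85 (11.71 to 11.75) and low for Uqcrb at 13.13 (13.20 to 13.22).

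Changes of 3 members differed between a conazole and phenobarbital in limma's test of the difference. For Ndufa13 the propiconazole change minus the phenobarbital change at day 4 was -0.41 ± 0.09 (SE, adjusted p = 0.0196), and for Cox8c at day 30 it was 0.60 ± 0.14 (adjusted p = 0.0246). For Uqcr10 the triadimefon change minus the phenobarbital change at day 30 was -0.45 ± 0.10 (adjusted p = 0.0410).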

How the results depend on the processing

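Counts of members called moved with the scaling and with the arrays that set the spread. The signs of the 36 gene results named did not reverse in any of 1684 alternative values. This was largely fixed in advance and is no measure of robustness. The 36 were chosen by their calls, and leaving out an array of a group not compared cannot move a change. Of the 1684 values, 1372 kept their call and 312 lost it. The cause of each move below was not tested.

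With values as deposited, 37 members were called at propiconazole day 4, 2 at propiconazole day 30, 10 at triadimefon day 4 and 5 at triadimefon day 30. Between the conazoles they numbered 67 at day 4 and 1 at day 30, for triadimefon's change between the days 8, and for propiconazole's change minus phenobarbital's 9 at day 4 and 0 at day 30. The median over all members was -0.29 at propiconazole day 4, 0.17 at triadimefon day 4 and 0.061 at phenobarbital day 30. With median centring the counts were 6 at propiconazole day 4, 2 at propiconazole day 30, 0 at triadimefon day 4, 3 at triadimefon day 30, 18 and 1 between the conazoles at day 4 and day 30, and 0 for the propiconazole minus phenobarbital difference at both times and for the triadimefon one at day 30. The median was then 0.022 at triadimefon day 4 and 0.11 at phenobarbital day 30.

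With the mean of all probe sets, 2 members were called at propiconazole day 30, 0 at triadimefon day 4 and 0 in both differences from phenobarbital at day 30. With genes above background alone, 0 were called at phenobarbital day 30 and 3 in the triadimefon minus phenobarbital difference at day 30. With each experiment on its own, 0 were called in the 4 conazole comparisons with control and between the conazoles at day 30, and 2 at phenobarbital day 4. In the conazole experiment on its own without propiconazole day 4 replicate 2, chosen after seeing the data, 2 were called at propiconazole day 4, 0 at triadimefon day 4, 4 at triadimefon day 30 and 0 between the conazoles at day 30, and the median at propiconazole day 4 was -0.045. Fits to the arrays compared called 0 at propiconazole day 4, 1 at propiconazole day 30, 0 at triadimefon day 4, 1 at triadimefon day 30, 0 between the conazoles at day 30, 0 for propiconazole minus phenobarbital at day 4 and 6 at day 30, and 11 for triadimefon minus phenobarbital at day 30.

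A replicate block called 6 members at propiconazole day 4, 3 at propiconazole day 30, 0 at triadimefon day 4, 5 at triadimefon day 30 and 0 in both differences from phenobarbital at day 30. The numbers share nothing known: correlations of same-numbered deviations ran from -0.11 to 0.16 over 22 pairs, and 6 of 22 arrays correlated best with their own number. The block changed no other count by over 1.5 times.

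Leaving out each of the 38 arrays gave 4 to 29 members called at propiconazole day 4, 2 to 18 at propiconazole day 30, 0 to 3 at triadimefon day 4, 3 to 20 at triadimefon day 30, 0 at phenobarbital day 4 and 1 at phenobarbital day 30. Between the conazoles the counts were 0 to 18 at day 4 and 1 to 8 at day 30. Between the days they were 0 to 2 for propiconazole, 0 to 5 for triadimefon and 0 for phenobarbital. Against phenobarbital they were 0 to 12 and 0 to 4 for propiconazole at day 4 and day 30, and 0 and 0 to 8 for triadimefon. The medians ran from -0.084 to -0.038 at propiconazole day 4, -0.060 to 0.009 at propiconazole day 30, -0.042 to -0.025 at triadimefon day 4, -0.18 to -0.13 at triadimefon day 30, -0.011 to 0.025 at phenobarbital day 4 and -0.027 to -0.004 at phenobarbital day 30. Calls kept in all 38 were Sdhd with both conazoles at day 30, Uqcr10 with triadimefon at day 30 and between the conazoles, Uqcrq with triadimefon at day 30, Ndufv1 with propiconazole at day 4 and Cox6b2 with phenobarbital at day 30.

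Precision is limited by the 3 arrays of each conazole group. Genes at or below a level of 6.13 have no usable fold.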

Other observations

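Ndufb1, a complex I subunit of the membrane arm, ranged from 4.00 to 8.52 over the 38 arrays, around a mean of 6.79 that lies just above background. Its 6 changes against control were all positive, from 0.05 at triadimefon day 30 to 0.76 at phenobarbital day 4, and limma called none of them (adjusted p of 0.708 or more).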
